A study of Mus musculus with 23 samples.

Results

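The 47 nuclear genes described here carry the symbols of subunits of respiratory complexes II to V and were taken by symbol alone, as the loci named Sdha to Sdhd (complex II, 4 genes), Uqcr and what follows (complex III, 8 genes), Cox4 to Cox8 and what follows (complex IV, 18 genes) and Atp5 and what follows (complex V, 17 genes), out of 24917 loci. RNA had been sequenced from the colonic epithelium, removed from the whole colon with EDTA, of male C57BL/6 mice (C57BL/6J in the study's methods) with no genetic change named. From 6 weeks of age the mice were kept for 43 weeks on 1 of 3 regimens. For LF mice, fat supplied 10% of the calories throughout, and for HF mice 60%. HF-LF mice ate the 60% food for 15 weeks and the 10% food for the remaining 28 weeks. Batch 1 held 4 LF, 3 HF and 4 HF-LF samples and batch 2 held 4 LF, 3 HF and 5 HF-LF samples, 23 in all. The study's methods give fewer mice per regimen than the samples of both batches together, so samples of batch 1 and batch 2 may share a mouse, and which ones do is not given in the sources used here. P-values therefore measure the spread between these samples, part of which may be technical, and those of fits over both batches may be too small.

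Complex II passes electrons from succinate to ubiquinone, complex III passes them on to cytochrome c, and complex IV passes them to oxygen. The gradient of protons that complexes III and IV build, together with complex I, drives complex V, the ATP synthase. Colonocytes are known for burning the short-chain fatty acid butyrate in their mitochondria, so that these complexes supply much of their ATP. Complex II is encoded by nuclear genes throughout, while complexes III, IV and V also hold subunits encoded by mitochondrial DNA. The file lists 0 loci of the mitochondrial chromosome, so those subunits were not analysed here. Atp5s and Atp5sl carry the symbol without being core subunits of the ATP synthase, and were kept because the choice was by symbol.

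Libraries held between 29189922 and 65320947 counts. Levels are given as CPM, counts scaled to the library's total, and 3 counts, the least taken as a measurable level, came to between 0.0459 and 0.103 CPM. This floor covers counting error only. The labelled tissue was checked on marker genes: Epcam and Muc2, which mark epithelial and goblet cells, were abundant, while the summed level of 6 smooth muscle genes stayed between 0.541 and 50.2 CPM. In bulk RNA, fewer cells of a type and less RNA per cell cannot be told apart, and this holds for every difference below.

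Complex IV held both the highest and the lowest levels of the 47 genes. A filter on low counts was passed by 43 of them within each batch and by 44 over both batches, the genes left out being Cox4i2, Cox7b2, Cox8c and, within batches, Cox6a2. Between genes, levels were compared per kb of transcript. Cox4i1, which encodes the ubiquitous form of subunit 4, led complex IV with a mean of 1037 CPM per kb over the 23 samples, followed by Cox8a at 868, Cox6b1 at 835 and Cox6a1 at 731 CPM per kb. Atp5b and Atp5a1, the catalytic beta and the alpha subunit of the ATP synthase head, led complex V with 981 and 709.6 CPM per kb. In complex III the highest level was that of Uqcrh, the hinge protein that binds cytochrome c1, with 625 CPM per kb, and the other 7 genes lay between 212 and 455 CPM per kb. The genes of complex II were the most even, from 164 CPM per kb for Sdha, the catalytic flavoprotein, to 234 CPM per kb for Sdhd, a membrane anchor, with Sdhc and Sdhb between them.

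**Figure D1:**
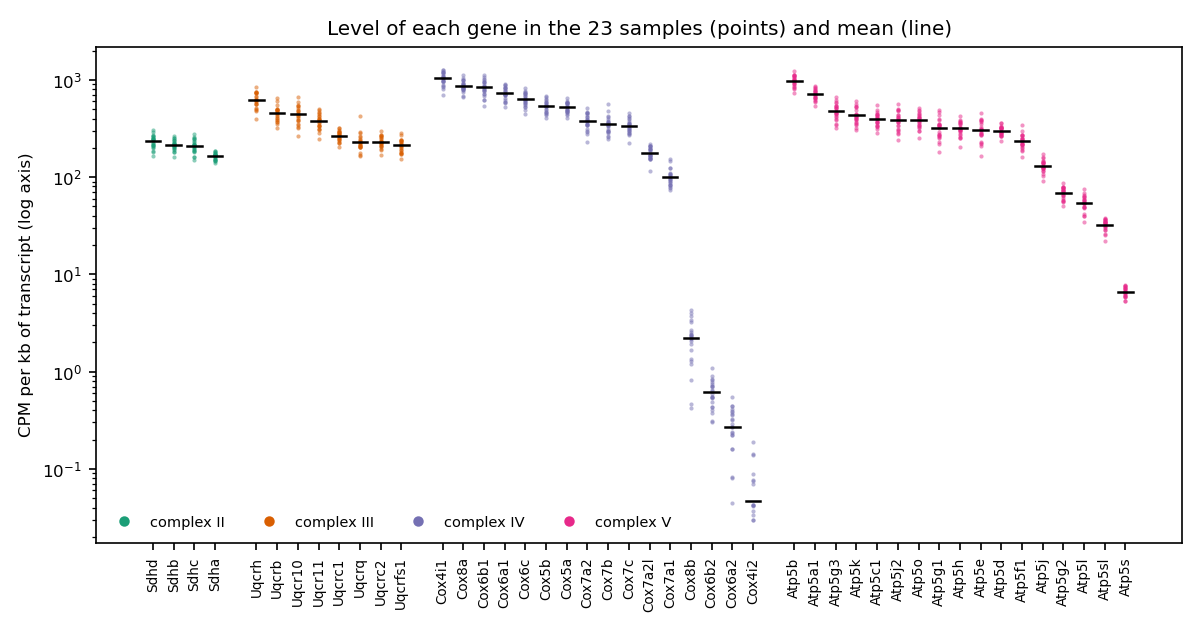
Level of each gene in CPM per kb of transcript on a log axis, 1 point per sample and a line at the mean of the 23 samples, genes ordered by mean within complexes II, III, IV and V. Cox7b2 and Cox8c, which had no counts, and single samples at 0 are not drawn. The plot shows most genes between 100 and 1037 CPM per kb, and 4 genes of complex IV (Cox8b, Cox6b2, Cox6a2 and Cox4i2) far below them.

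Subunits of complex IV that come in tissue forms were represented almost wholly by the ubiquitous form. The forms known from muscle, lung or testis were far lower. Cox8b averaged 0.799 CPM, Cox6b2 0.339 CPM and Cox6a2 0.185 CPM, which are above the lowest measurable level. Cox4i2 had 30 counts in the 23 samples together, and Cox7b2 and Cox8c had 0 counts in each sample. Cox8b made up 0.256% of Cox8a and Cox8b per kb, Cox6b2 0.0743% of its pair with Cox6b1, and Cox6a2 0.0380% of its pair with Cox6a1. Cox7a1, the form of subunit 7a best known from heart and skeletal muscle, was the exception, with 39.4 CPM and 21.3% ± 3.87 (SD, n = 23) of Cox7a1 and Cox7a2 together. Its share lay between 19.0% and 29.7% in the samples of batch 1 and between 15.5% and 21.2% in those of batch 2. Of 5 striated muscle genes, Ckm, Actn2 and Tnnt3 averaged under 0.05 CPM, while Mylpf averaged 0.838 CPM and Myh7 0.519 CPM and were measured in each sample.

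The membrane ring of the ATP synthase is built of a single protein, the c subunit, whose mature form is encoded identically by Atp5g1, Atp5g2 and Atp5g3. Per kb, Atp5g3 made up 55.1%, Atp5g1 36.8% and Atp5g2 8.11% of their sum, as means over the 23 samples. The level of Atp5g2, with 86.9% of its 76-base windows also found in other annotated genes (mostly processed copies), is uncertain, as are those of Atp5l (75.7%), Atp5g1 (59.3%) and Cox7c (50.3%), because how the counting treated reads that match several loci is not given in the sources used here. Of the 47 genes, 27 shared no such window, Atp5g3 among them.

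The promoters of the 3 c subunit genes, which differed in level, are shown with those of Atp5k and Uqcr11, small subunits of complexes V and III. Each run is the 250 bases before the RefSeq start site on build GRCm38.p6, read 5′ to 3′ on the gene's strand, and capitals mark matches, on either strand and wholly inside the run, to the motifs of NRF1, ETS factors, ERR, YY1 and SP1 or to a TATA box.
Atp5g1, chr11:96075632-96075881, minus strand: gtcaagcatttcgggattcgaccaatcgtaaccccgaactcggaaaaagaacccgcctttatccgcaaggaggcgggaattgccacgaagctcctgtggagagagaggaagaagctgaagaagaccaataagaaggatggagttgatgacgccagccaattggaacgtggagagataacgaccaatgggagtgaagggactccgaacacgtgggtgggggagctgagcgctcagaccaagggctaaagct
Atp5g2, chr15:102671048-102671297, minus strand: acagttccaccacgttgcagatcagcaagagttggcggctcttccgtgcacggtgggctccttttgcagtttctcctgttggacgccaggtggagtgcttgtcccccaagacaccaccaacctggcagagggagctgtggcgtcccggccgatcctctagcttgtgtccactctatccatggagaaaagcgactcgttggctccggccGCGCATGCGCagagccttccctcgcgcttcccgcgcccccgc
Atp5g3, chr2:73911327-73911576, minus strand: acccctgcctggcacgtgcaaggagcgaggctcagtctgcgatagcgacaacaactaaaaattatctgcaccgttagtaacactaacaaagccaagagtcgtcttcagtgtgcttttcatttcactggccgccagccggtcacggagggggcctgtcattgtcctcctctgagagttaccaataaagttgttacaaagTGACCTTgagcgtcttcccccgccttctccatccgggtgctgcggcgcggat
Atp5k, chr5:108434400-108434649, minus strand: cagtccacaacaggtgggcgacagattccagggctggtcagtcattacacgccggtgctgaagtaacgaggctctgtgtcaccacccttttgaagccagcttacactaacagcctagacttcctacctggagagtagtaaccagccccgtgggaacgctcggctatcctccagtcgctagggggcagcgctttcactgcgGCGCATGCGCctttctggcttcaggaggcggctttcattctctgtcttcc
Uqcr11, chr10:80406822-80407071, minus strand: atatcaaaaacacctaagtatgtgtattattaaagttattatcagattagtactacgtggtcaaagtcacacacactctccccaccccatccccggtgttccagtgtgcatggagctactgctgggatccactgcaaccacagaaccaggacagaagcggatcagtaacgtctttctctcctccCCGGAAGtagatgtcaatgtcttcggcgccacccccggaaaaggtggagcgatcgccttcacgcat
The capitals are an ETS match in Uqcr11, an ERR match on the opposite strand in Atp5g3, and in Atp5g2 and Atp5k a run in which an NRF1 match on each strand overlap. The Atp5g1 run holds none of the 6 motifs. In a window that runs 50 bases past the start, available for 37 of the 47 genes, the NRF1 motif, GCGCATGC, was found in 7 (18.9%, against 3.69% of all 17884 promoters) and the ETS motif, CCGGAAG, in 11 (29.7% against 12.04%). The ERR motif, AAGGTCA, was found in 5 (13.5% against 3.92%) and the YY1 motif, AAGATGG, in 4 (10.8% against 6.53%). The SP1 motif, GGGCGG, was found in 14 (37.8% against 47.2%) and the TATA box, TATAAA, in 3 (8.11% against 13.1%). A match is a run of letters and not a measured binding site.

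Lifelong HF feeding was compared with LF feeding to ask how these genes differ between obese and control mice at that age. In batch 1, the HF mean was higher for 42 of the 43 genes tested, with a median log2 fold change of 0.32 while all 14428 genes had a median of -0.0038. None passed an adjusted p of 0.05 with a fold change over 1.2 in edgeR's quasi-likelihood test, adjusted over all genes tested by the Benjamini-Hochberg method, and 0% of all genes did so in either direction. DESeq2, run as an alternative, called 1 higher, Atp5g1, and 2.44% of all genes. At an unadjusted p under 0.05, 20 of the 43 were higher and 1 was lower, against 12% and 10.2% of all genes. In batch 2, 42 of the 43 were again higher, with a median of 0.25 and -0.01 for all genes, and 1 gene, Atp5j, rose, where 3.03% of all genes were called higher and 4.4% lower. DESeq2 called 17 of the 43 higher (6.09% of all genes), and so did edgeR with the replicate number as a block (17 of 43, and 6.2% of all genes). Whether the numbers pair the samples is not given in the sources used here. At an unadjusted p under 0.05, 27 were higher and 0 lower, against 16% and 17.1% of all genes. HF samples lay above every LF sample for 3 of the 43 genes in batch 1 (6.29% of all genes did so) and for 20 in batch 2 (13.8% of all genes).

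Over both batches, with batch as a term, 25 of 44 genes rose in HF mice and 0 fell, with a median log2 fold change of 0.30, while 9.4% of all genes were called higher and 8.41% lower. The 25 were 2 of the 4 genes of complex II, 7 of the 8 of complex III, 6 of the 15 tested of complex IV and 10 of the 17 of complex V. With same-numbered samples of a diet taken as the same mouse in both batches (limma, estimated correlation -0.0999), 2881 of all genes were called in either direction. Of the 44, the count was 26. Without single samples it lay between 12 and 28. Here and below, the share of all genes called in such fits is not given. The count was 12 without HF batch 1 replicate 3, 13 without LF batch 1 replicate 3, 14 without HF batch 2 replicate 2 and 16 without HF batch 1 replicate 1. The difference of the HF to LF change between the batches was tested as an interaction, and 0 of the 44 genes passed, with the smallest adjusted p at 0.842, 0 at an unadjusted p under 0.05 (3.14% of all genes were higher and 3.36% lower at that level), 0 in DESeq2, and 0% of all genes called in either direction. Fold changes of all genes differed by transcript length: with the 47 genes left out, the median log2 fold change over both batches was 0.25 for transcripts under 600 bases, 0.19 from 600 to under 1000 bases, 0.08 from 1000 to under 2000 bases, 0.0029 from 2000 to under 4000 bases and -0.087 from 4000 bases. The 47 genes had a median length of 680 bases, with 20 under 600 bases. When a per-sample trend on transcript length, estimated from all genes, was taken out, the median of the 44 became 0.08, and 2 genes passed: Atp5f1 stayed higher (log2 fold change 0.29, adjusted p = 0.0115) and Atp5sl became lower (-0.28, adjusted p = 0.0158). In that fit 2014 of all 14725 genes were called in either direction, and 2623 in the fit with no length trend taken out. Such a correction also takes out a change that short genes share for another reason, and the part of transcript length in the result was not tested.

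**Figure D2:**
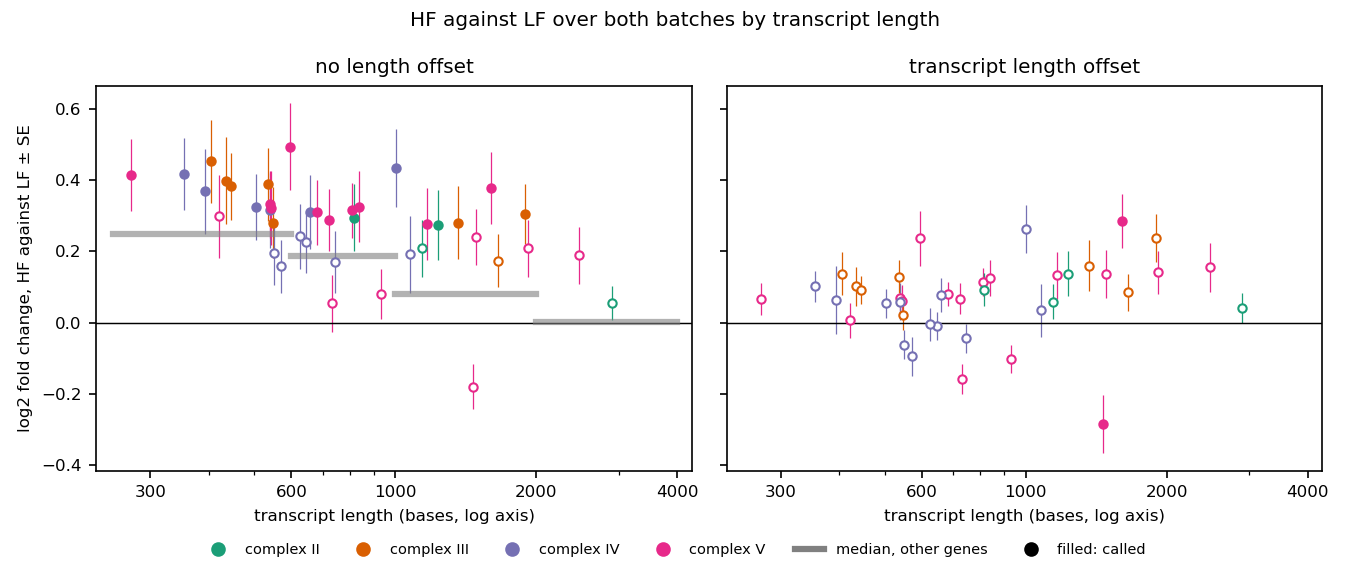
Log2 fold change of HF against LF over both batches (± SE) by transcript length in bases on a log axis, 1 point per gene coloured by complex and filled where called, without (left) and with (right) a per-sample length trend taken out. Grey bars are medians of all other genes in a length class, from 0.25 under 600 bases to 0.0029 from 2000 to under 4000 bases. Cox8b, Cox6b2 and Cox6a2 are left out.

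In complex II, the enzyme that also oxidises succinate in the citric acid cycle, the membrane anchors Sdhc and Sdhd rose over both batches and the catalytic subunits did not pass the test. Sdhc in batch 1 measured 175, 131, 121 and 157 CPM under LF, 186, 146 and 211 CPM under HF and 175, 132, 180.2 and 151 CPM under HF-LF. Sdhc in batch 2 measured 153, 180.0, 166 and 201 CPM under LF, 205, 226 and 198 CPM under HF and 152, 189.6, 172, 163 and 171 CPM under HF-LF. The HF sample with the lowest value in batch 1 lay among the LF samples, and in batch 2 the LF sample at 201 CPM reached into the HF range. Its log2 fold change was 0.31 ± 0.16 in batch 1, 0.26 ± 0.09 in batch 2 and 0.29 ± 0.09 (SE, adjusted p = 0.0254) over both. Sdhd gave 0.27 ± 0.10 (SE, adjusted p = 0.0411) over both batches. Neither anchor passed in every fit that left out 1 of the 23 samples, Sdhc passing in 17 and Sdhd in 12. Sdha differed little between diets. Sdha in batch 1 measured 484, 450.0, 409 and 425 CPM under LF, 437, 433 and 464 CPM under HF and 449.8, 421, 484 and 462 CPM under HF-LF. Sdha in batch 2 measured 481, 508, 501 and 515 CPM under LF, 533, 535 and 522 CPM under HF and 488, 481, 485, 492 and 489.5 CPM under HF-LF. All 3 HF values of batch 2 lay above the LF values, by a small margin, and in batch 1 the groups overlapped. Its log2 fold change was 0.05 ± 0.05 (SE, adjusted p = 0.407) over both batches, and that of Sdhb, the iron-sulfur subunit, was 0.21 ± 0.08 (SE, adjusted p = 0.0524).

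In complex III, 7 of the 8 genes rose, and the largest log2 fold changes were those of the small subunits Uqcrq, Uqcr10, Uqcrb and Uqcr11, though a difference from the large core proteins was not tested. Uqcrq encodes a small subunit beside cytochrome b. Uqcrq in batch 1 measured 91.3, 83.2, 66.4 and 93.2 CPM under LF, 118, 86.3 and 173 CPM under HF and 100.2, 83.2, 105 and 82.6 CPM under HF-LF. Uqcrq in batch 2 measured 84.2, 83.4, 86.4 and 92.0 CPM under LF, 97.4, 115 and 108 CPM under HF and 68.7, 94.3, 93.7, 70.9 and 85.7 CPM under HF-LF. HF replicate 3 of batch 1 stood far above the other samples, HF replicate 2 lay among the LF samples, and in batch 2 all HF samples lay above all LF samples. The log2 fold change was 0.59 ± 0.19 in batch 1, 0.30 ± 0.10 in batch 2 and 0.45 ± 0.12 (SE, adjusted p = 0.00953) over both. Uqcr11 encodes one of the smallest subunits. Uqcr11 in batch 1 measured 147, 126, 109 and 151 CPM under LF, 197, 148 and 217 CPM under HF and 159, 134, 177 and 137 CPM under HF-LF. Uqcr11 in batch 2 measured 165, 170.3, 176 and 189.5 CPM under LF, 201, 223 and 205 CPM under HF and 138, 190.0, 174, 154 and 182 CPM under HF-LF. One HF sample of batch 1 overlapped with LF, and in batch 2 the groups did not overlap. It rose over both batches by 0.38 ± 0.09 (SE, adjusted p = 0.00829). Uqcrb rose by 0.39 ± 0.10 (SE, adjusted p = 0.0106) and the core protein gene Uqcrc2 by 0.30 ± 0.08 (SE, adjusted p = 0.0136). The other core protein gene, Uqcrc1, did not pass, with 0.17 ± 0.07 (SE, adjusted p = 0.0791), and was the 1 gene of the 8 that did not.

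In complex IV, 6 of 15 genes rose over both batches, led by Cox6b1 and Cox7b. Cox6b1 encodes a subunit that faces the intermembrane space and lies where the enzyme's copies meet in the dimer. Cox6b1 in batch 1 measured 282, 219.9, 192 and 251 CPM under LF, 339, 272 and 377 CPM under HF and 296, 219.7, 306 and 281 CPM under HF-LF. Cox6b1 in batch 2 measured 252, 299, 285 and 337 CPM under LF, 351, 398 and 365 CPM under HF and 243, 339, 318, 271 and 307 CPM under HF-LF. The lowest HF sample of batch 1 lay below 1 LF sample, and in batch 2 the lowest HF value was above the highest LF value. The log2 fold change was 0.48 ± 0.15 in batch 1, 0.34 ± 0.11 in batch 2 and 0.42 ± 0.10 (SE, adjusted p = 0.00732) over both. Cox7b, a small membrane subunit, was the highest of the complex in log2 fold change among genes called. Cox7b in batch 1 measured 374, 297, 249 and 348 CPM under LF, 478, 352 and 559 CPM under HF and 391.74, 294, 425 and 331 CPM under HF-LF. Cox7b in batch 2 measured 267, 316, 297 and 364 CPM under LF, 373, 411 and 369 CPM under HF and 259, 344, 337, 285 and 300.04 CPM under HF-LF. It rose by 0.43 ± 0.11 (SE, adjusted p = 0.00925), and again only HF replicate 2 of batch 1 lay within the LF range. Cox6c and Cox7a2 rose by 0.32 ± 0.09 (SE, adjusted p = 0.0147) and 0.31 ± 0.10 (SE, adjusted p = 0.03). Of the 23 fits that left out 1 sample, Cox6c passed in each and Cox7a2 in 17. Of the genes with the highest levels per kb in the complex, Cox6b1 rose, while Cox4i1, Cox8a and Cox6a1 did not pass. Cox4i1 had a log2 fold change of 0.17 ± 0.09 (SE, adjusted p = 0.137), Cox8a of 0.19 ± 0.09 (SE, adjusted p = 0.0991) and Cox6a1 of 0.16 ± 0.07 (SE, adjusted p = 0.109).

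The form Cox7a1 rose along with Cox7a2. Cox7a1 in batch 1 measured 37.2, 34.7, 31.0 and 39.2 CPM under LF, 60.0, 37.1 and 42.5 CPM under HF and 57.9, 40.1, 43.4 and 41.8 CPM under HF-LF. Cox7a1 in batch 2 measured 32.6, 36.0, 34.5 and 41.5 CPM under LF, 48.5, 48.6 and 39.3 CPM under HF and 28.7, 37.4, 30.04, 32.6 and 32.2 CPM under HF-LF. In batch 1 the HF-LF sample at 57.9 CPM was close to the highest HF sample, and HF-LF samples of batch 1 were all above the LF samples, whereas in batch 2 they were not. Over both batches it rose in HF mice by 0.37 ± 0.12 (SE, adjusted p = 0.0265). Its share of the pair averaged 23.2% in LF and 23.7% in HF samples of batch 1, and 18.8% and 19.5% in those of batch 2. Among the rare forms, Cox8b measured 0.915, 0.962, 0.434 and 0.865 CPM under LF, 0.776, 0.79 and 1.17 CPM under HF and 0.153, 0.46, 0.297 and 0.166 CPM under HF-LF in batch 1. Cox8b in batch 2 measured 0.489, 0.833, 0.808 and 0.87 CPM under LF, 1.54, 1.43 and 1.21 CPM under HF and 1.34, 0.694, 0.851, 0.597 and 0.734 CPM under HF-LF. These are few counts, 741 in all samples together. Its log2 fold change of HF against LF was 0.21 ± 0.37 (SE, adjusted p = 0.745) in batch 1 and 0.87 ± 0.26 (SE, adjusted p = 0.0518) in batch 2. In batch 2 DESeq2 called Cox8b higher (0.88 ± 0.29, SE, adjusted p = 0.0226), as it did 6.09% of all genes. Cox6b2, with 310 counts in all, gave 0.57 ± 0.24 (SE, adjusted p = 0.0737) over both batches.

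In complex V, the ATP synthase, the 10 genes that rose were those of the peripheral stalk (Atp5f1, Atp5h, Atp5j and Atp5o), most of those of the membrane part (Atp5g1, Atp5g3, Atp5j2, Atp5k and Atp5l) and Atp5c1, the gamma subunit of the rotating stalk. Atp5g1 had the largest log2 fold change of the complex. Atp5g1 in batch 1 measured 154, 129.9, 109 and 149 CPM under LF, 189.9, 159 and 294 CPM under HF and 166, 136, 201 and 161 CPM under HF-LF. Atp5g1 in batch 2 measured 210.3, 207, 201 and 204 CPM under LF, 228, 277 and 261 CPM under HF and 171, 233, 206, 161 and 209 CPM under HF-LF. All HF samples lay above all LF samples in both batches, by a small margin in batch 1, where HF replicate 3 was far above the rest. The log2 fold change was 0.66 ± 0.19 in batch 1 (adjusted p = 0.16), 0.31 ± 0.11 in batch 2 (adjusted p = 0.0695) and 0.49 ± 0.12 (SE, adjusted p = 0.00814) over both. Atp5g3 gave 0.29 ± 0.09 (SE, adjusted p = 0.0194) over both batches. Atp5g2 did not pass. Atp5g2 in batch 1 measured 53.2, 41.8, 37.0 and 47.9 CPM under LF, 49.7, 42.6 and 48.3 CPM under HF and 44.97, 40.1, 55.9 and 42.0 CPM under HF-LF. Atp5g2 in batch 2 measured 54.0, 54.0, 53.1 and 63.3 CPM under LF, 56.6, 57.5 and 58.0 CPM under HF and 46.8, 56.6, 57.8, 52.4 and 51.7 CPM under HF-LF. LF and HF samples overlapped in both batches, and the log2 fold change was 0.05 ± 0.08 (SE, adjusted p = 0.628) over both. The share of Atp5g1 in the 3 genes per kb averaged 34.4% ± 0.946 (SD, n = 4) in LF and 40.3% ± 4.19 (SD, n = 3) in HF samples of batch 1, and 36.7% ± 2.502 (SD, n = 4) and 37.9% ± 1.204 (SD, n = 3) in those of batch 2, where the ranges overlapped.

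Atp5k, which encodes the small e subunit of the membrane part, and Atp5j, coupling factor 6 of the peripheral stalk, had the lowest adjusted p of the complex over both batches. Atp5k in batch 1 measured 118, 87.6, 82.0 and 109.7 CPM under LF, 143, 107 and 153 CPM under HF and 122, 93.0, 118 and 101 CPM under HF-LF. Atp5k in batch 2 measured 98.4, 112, 105 and 143 CPM under LF, 145, 167 and 134 CPM under HF and 96.4, 121, 116, 107 and 113 CPM under HF-LF. In each batch 1 HF sample fell below the highest LF sample. Atp5k rose over both batches by 0.41 ± 0.10 (SE, adjusted p = 0.00807). Atp5j was the 1 gene called within a batch. Atp5j in batch 1 measured 99.5, 83.2, 73.7 and 92.4 CPM under LF, 116, 98.3 and 118 CPM under HF and 106, 86.6, 112 and 101 CPM under HF-LF. Atp5j in batch 2 measured 99.4, 114, 105 and 119 CPM under LF, 129.6, 139 and 127 CPM under HF and 94.3, 112, 114, 102 and 103 CPM under HF-LF. The HF samples of batch 2 lay above all others, and 1 HF sample of batch 1 fell below the highest LF sample. The log2 fold change was 0.34 ± 0.12 (SE, adjusted p = 0.168) in batch 1, 0.27 ± 0.08 (SE, adjusted p = 0.0438) in batch 2 and 0.31 ± 0.08 (SE, adjusted p = 0.00807) over both. In batch 2 the call held in 4 of the 12 fits that left out 1 sample, and the number of genes called there was 23 without LF replicate 4, 9 without HF-LF replicate 1, 4 without HF-LF replicate 2, and 0 without each of LF replicates 1, 2 and 3, HF-LF replicates 4 and 5 and HF replicates 1, 2 and 3. In batch 1 it was 10 without HF replicate 2. Atp5f1, subunit b of the peripheral stalk, rose over both batches by 0.38 ± 0.10 (SE, adjusted p = 0.0111). Atp5c1 rose by 0.28 ± 0.10 (SE, adjusted p = 0.0454), while Atp5a1, Atp5b and the delta subunit gene Atp5d did not pass, with log2 fold changes of 0.19 ± 0.08, 0.21 ± 0.08 and 0.08 ± 0.07 (SE). Atp5sl was the 1 gene with a lower HF mean, by -0.18 ± 0.06 (SE, adjusted p = 0.0382), a fold change under 1.2.

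**Figure D3:**
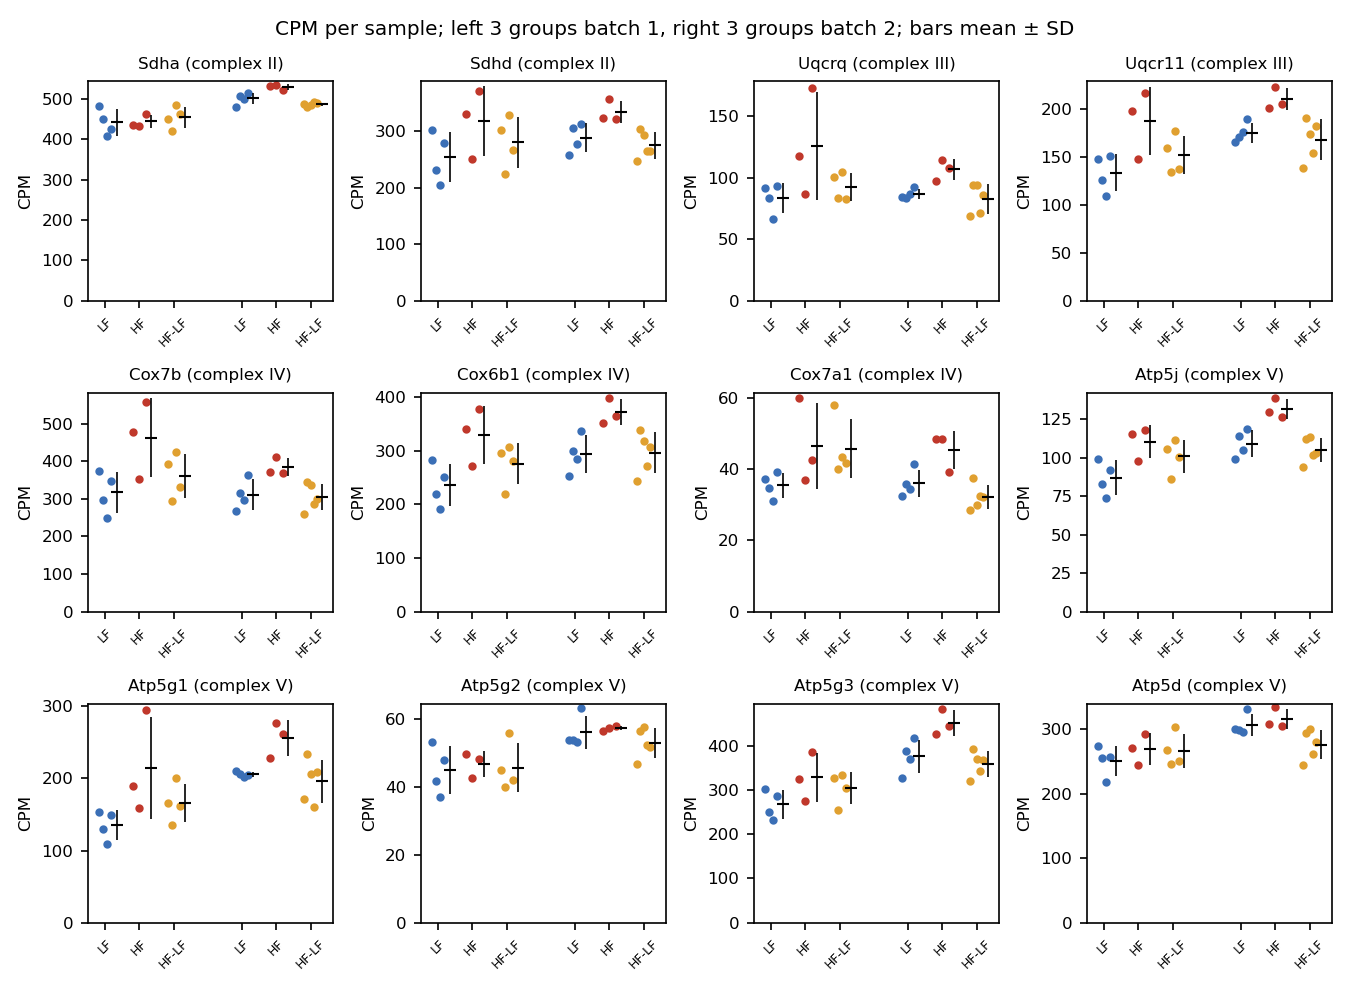
CPM in each sample for 12 genes of complexes II to V, linear axes from 0, LF, HF and HF-LF groups of batch 1 on the left and of batch 2 on the right of each panel, with the mean ± SD beside the points. Atp5g1 shows HF samples above all LF samples in both batches, while Sdha and Atp5g2 differ little between diets.

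Some genes named by the rule below passed for HF against LF over both batches in each of the 23 fits that left out 1 sample. They were Atp5f1, Atp5g1, Atp5j, Atp5k, Cox6b1, Cox6c, Cox7b, Uqcr11, Uqcrb and Uqcrq. These were picked for their small p in this same comparison and the fits share most samples, so this adds no separate support. Uqcrc2 passed in 21 of the fits, Atp5g3 in 20, Cox7a1 in 19, Cox7a2 in 17 and Uqcrh in 14. Genes named outside the rule were not looked at in this way. Summed up per sample, as the mean over genes of the log2 difference from the LF mean, the 43 genes tested in each batch gave 0.20, -0.04, -0.27 and 0.11 in the LF samples of batch 1, 0.35, 0.05 and 0.51 for HF and 0.19, -0.07, 0.30 and 0.05 for HF-LF. The HF sample at 0.05 lay among the LF samples. In batch 2 the LF samples gave -0.13, 0.03, -0.05 and 0.15, the HF samples 0.19, 0.31 and 0.18 and the HF-LF samples -0.19, 0.09, 0.03, -0.12 and -0.04, so that each HF sample was above the others. The spread between LF samples was 0.205 (SD, n = 4) in batch 1 and 0.121 (SD, n = 4) in batch 2. By complex, the median log2 fold change of HF against LF was 0.29, 0.37, 0.31 and 0.31 for complexes II, III, IV and V in batch 1, and 0.17, 0.25, 0.25 and 0.26 in batch 2. The values within a complex spread more widely than that, from 0.11 to 0.36 within complex III alone in batch 2, and a difference between complexes was not tested.

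**Figure D4:**
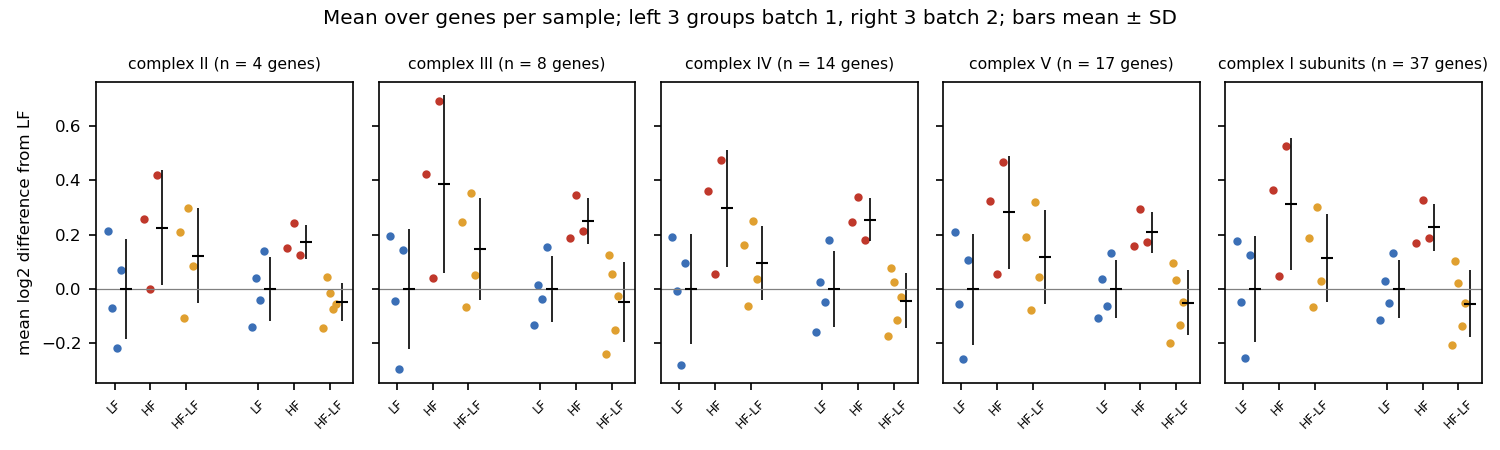
Mean over the genes of a complex of the log2 difference from the LF mean of the batch, 1 point per sample, with group mean ± SD, for complexes II (4 genes), III (8), IV (14) and V (17) and for 37 complex I subunits. In batch 2 the HF samples lie above the LF samples in complexes III, IV and V, and in batch 1 the HF sample nearest to 0 lies among the LF samples.

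Mice moved from the HF to the LF diet were compared with mice kept on the HF diet to ask whether the difference persists. These comparisons use the same HF samples as those above. In batch 2, 22 of 43 genes were lower in HF-LF than in HF samples and 0 were higher, where the median log2 fold change was -0.29, against 0.01 for all genes, and 5.61% of all genes were called lower and 8.89% higher. The 22 were 2 genes of complex II, 5 of complex III, 6 of complex IV and 9 of complex V. For 32 of the 43, every HF-LF sample lay below every HF sample, as did 12.4% of all genes. The count was 0 without HF replicate 2, 2 without HF-LF replicate 4, 3 without HF replicate 3, 4 without HF-LF replicate 1, 10 without HF-LF replicate 5, 13 without HF replicate 1 and 14 without LF replicate 2 or without LF replicate 3. With the length trend taken out, 0 of the 43 passed and the median was -0.06. In that fit 1375 of all 14377 genes were called in either direction, and 2084 in the fit with no length trend taken out. Transcripts under 600 bases outside the list had a median of -0.24 and those from 4000 bases one of 0.14, and the part of length in the result was not tested.

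Among the called genes of batch 2, Cox7a1 had the largest drop, with a log2 fold change of -0.50 ± 0.10 (SE, adjusted p = 0.0131). The HF-LF samples, at 28.7, 37.4, 30.04, 32.6 and 32.2 CPM, all lay below the 3 HF samples and overlapped with LF. In batch 1 its log2 fold change was -0.02 ± 0.16 (SE, adjusted p = 0.959), and over both batches it was -0.28 ± 0.12 (SE, adjusted p = 0.0944). Atp5k followed with -0.42 ± 0.11 (SE, adjusted p = 0.0229), Atp5g1 with -0.38 ± 0.10 (SE, adjusted p = 0.0253), Uqcrq with -0.37 ± 0.10 (SE, adjusted p = 0.0258) and Atp5j with -0.33 ± 0.07 (SE, adjusted p = 0.0152). For Atp5g1 the highest HF-LF sample, at 233 CPM, was above the lowest HF sample. In complex II, Sdhc and Sdhd fell, with -0.31 ± 0.09 (SE, adjusted p = 0.0303) and -0.28 ± 0.08 (SE, adjusted p = 0.032), and Sdha gave -0.12 ± 0.05 (SE, adjusted p = 0.0992). Among genes that were not called, Atp5g2 gave -0.11 ± 0.07 (SE, adjusted p = 0.268) and Cox4i1 -0.18 ± 0.09 (SE, adjusted p = 0.148).

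In batch 1, 41 of the 43 genes had lower HF-LF than HF means, with a median of -0.18, but 0 passed in edgeR's test, 2 were lower at an unadjusted p under 0.05 (6.04% of all genes), and DESeq2 also called 0. Of all genes, 0.00693% were called higher and 0% lower. HF-LF samples lay wholly below HF samples for 1 gene, Cox8b, which is at few counts, where 4.07% of all genes did so. Over both batches, 13 of 44 genes were lower in HF-LF than in HF mice (0 of complex II, 4 of complex III, 4 of complex IV and 5 of complex V), with a median of -0.25, beside 5.4% of all genes called lower and 4.79% higher. That count was 1 without HF batch 1 replicate 3 or HF batch 2 replicate 2, 3 without HF-LF batch 1 replicate 2, HF batch 1 replicate 1, HF-LF batch 2 replicate 1 or HF-LF batch 2 replicate 4, 5 without HF-LF batch 1 replicate 4, 6 without HF batch 2 replicate 3, 8 without HF-LF batch 2 replicate 5, 24 without HF-LF batch 1 replicate 3 and 28 without HF batch 1 replicate 2. With the length trend taken out that count was 0. In that fit 1044 of all 14725 genes were called in either direction, and 1500 in the fit with no length trend taken out.

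Against LF mice, the direction of the HF-LF medians differed between the batches, which was not tested. In batch 1 the median over the 43 genes was 0.13, with 41 higher, and in batch 2 it was -0.05, with 35 lower. No gene passed in either batch or over both, in edgeR's test or in DESeq2. At an unadjusted p under 0.05, 1 gene was higher and 1 lower in batch 1 (2.5% and 2.79% of all genes), 0 higher and 1 lower in batch 2 (2.15% and 2.5%), and 0 over both (1.8% and 2.27%). Of all genes, 0% were called higher or lower in batch 1, 0% higher and 0.00696% lower in batch 2, and 0% in either direction over both. A p that misses the threshold does not show that HF-LF and LF levels are alike.

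**Figure D5:**
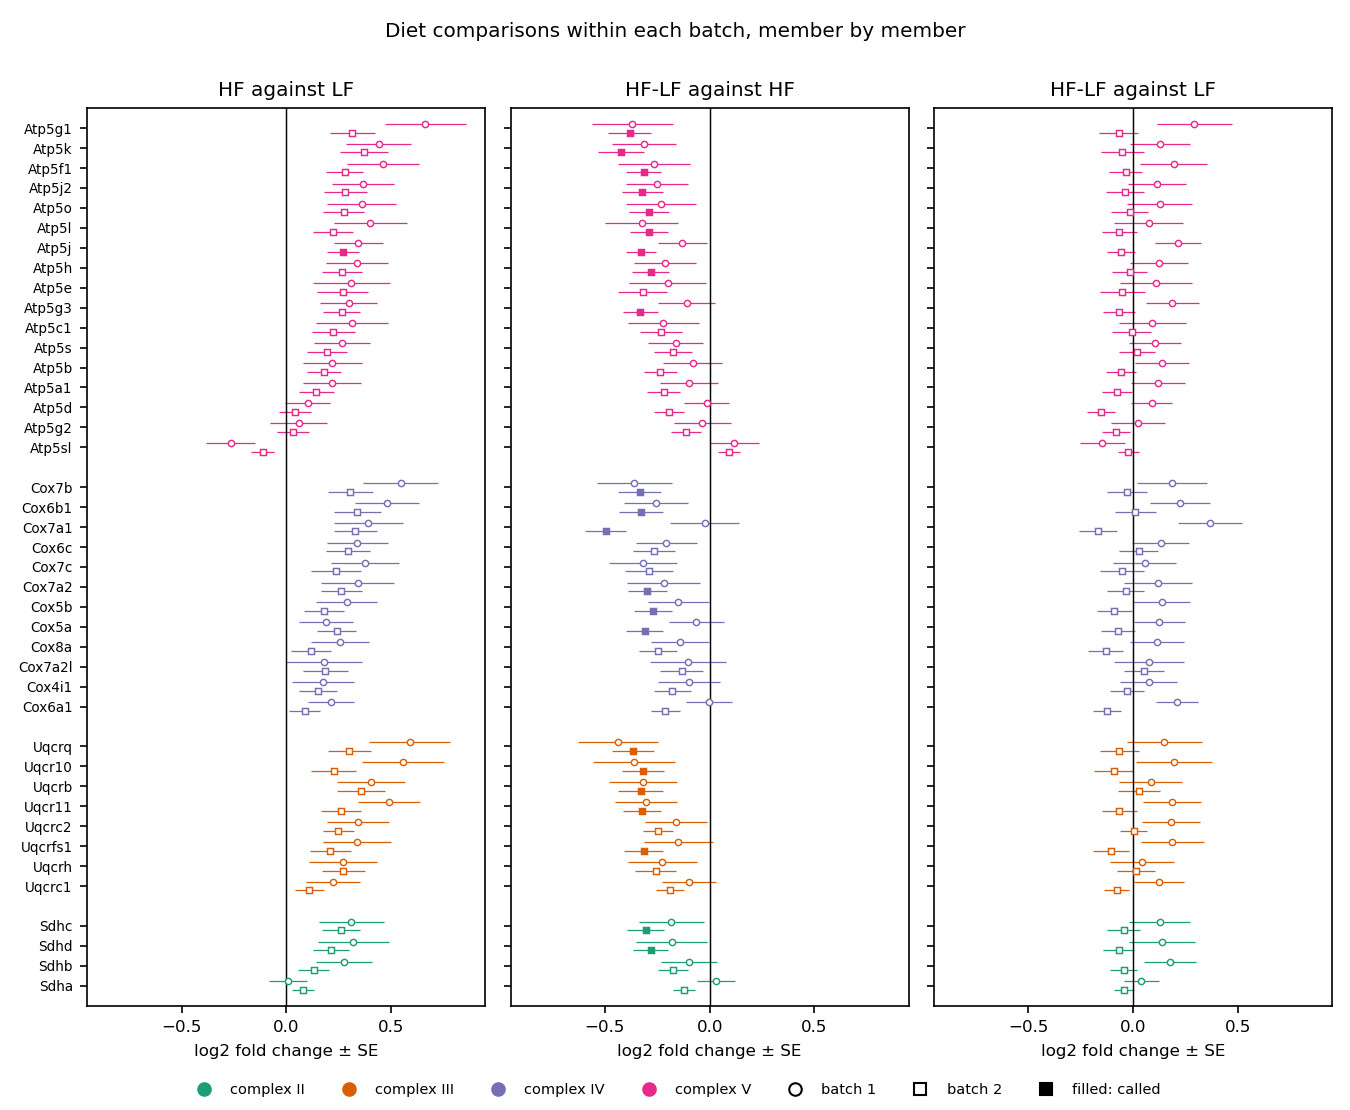
Log2 fold change ± SE of each gene for HF against LF, HF-LF against HF and HF-LF against LF, circles for batch 1 and squares for batch 2, filled where called. Cox8b and Cox6b2, tested at few counts, are left out, as are the genes not tested. Most genes lie right of 0 in the first panel and left of 0 in the second, and filled squares are nearly all in the second.

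The rest of the pathway was counted in the same fits. Of all genes, 0%, 3.03% and 9.4% were called higher for HF against LF in batch 1, batch 2 and over both, and 8.41% lower over both. For HF-LF against HF in batch 2, 5.61% of all genes were called lower. For 35 subunits of complex I, which feeds electrons from NADH into the chain, the median log2 fold change of HF against LF was 0.33 in batch 1, 0.23 in batch 2 and 0.28 over both, with 0, 4 and 20 called higher, and for HF-LF against HF in batch 2 19 were called lower. Cycs and Cyc1, which encode cytochrome c and c1, had medians of 0.30, 0.18 and 0.25, with 1 of 2 called over both batches. The 33 assembly factors of complexes II to V had medians of 0.19 in each batch and over both, with 0, 1 and 6 called higher. The 14 citric acid cycle enzymes had medians of 0.15, 0.13 and 0.15, with 1 called higher over both batches, and the 8 carriers and pores of the mitochondrial membranes 0.22, 0.14 and 0.19, with 1. The 16 regulators of mitochondrial biogenesis, such as Ppargc1a, Nrf1 and Tfam, had medians of 0.00, -0.06 and -0.04, with 0 called higher and 1 lower over both batches. Lists from outside the mitochondrion moved too: 78 cytosolic ribosomal proteins, whose transcripts are short, had medians of 0.31, 0.20 and 0.27, with 24 called higher and 2 lower over both batches, and 15 proliferation genes had medians of 0.63, 0.18 and 0.40, with 11 called higher.

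Markers of other cell types differed with diet in some lists. Of all genes, 3.03% were called higher and 4.4% lower for HF against LF in batch 2, and 9.4% and 8.41% over both batches. For HF-LF against HF in batch 2, 8.89% were called higher and 5.61% lower. For HF against LF in batch 2, 2 of 6 goblet cell genes and 2 of 5 enteroendocrine genes were called higher, 1 of 5 stem and progenitor genes higher and 1 lower, and 1 of 6 smooth muscle genes lower. None was called in the lists of colonocyte, tuft, T, B and plasma cell, macrophage, fibroblast, endothelial, adipocyte and striated muscle genes. In batch 1 none was called in any of these lists. Over both batches, 3 goblet cell, 2 enteroendocrine, 1 stem and progenitor and 1 striated muscle gene were called higher, and 1 stem and progenitor and 1 fibroblast gene lower. For HF-LF against HF in batch 2, 2 goblet cell, 2 enteroendocrine and 1 stem and progenitor gene were called lower, and 1 stem and progenitor and 1 T cell gene higher. The enteroendocrine genes, summed up as the 43 genes were, gave HF samples values between 0.259 and 0.316 in batch 2, where LF samples lay between -0.236 and 0.128, and between 0.150 and 0.392 in batch 1, where LF samples lay between -0.263 and 0.220. The 6 goblet cell genes went both ways. Their summed CPM had lower HF means, 29692 against 34081 under LF in batch 2 and 20240 against 22536 in batch 1. Their mean log2 difference from LF was higher in HF samples, 0.284 in batch 2 and 0.153 in batch 1. Macrophage genes had lower HF means, with medians of -0.73 in batch 1 (4 of 4) and -0.47 in batch 2 (3 of 3 tested). The 6 smooth muscle genes summed to between 5.86 and 31.0 CPM in LF samples of batch 2, 0.858 to 4.68 in its HF samples and 1.84 to 15.3 in its HF-LF samples, with all 6 lower in HF than in LF samples, a median log2 fold change of -2.40 and 1 called. In batch 1 the sums were 1.16 to 11.2, 0.541 to 10.1 and 2.51 to 50.2 CPM, with a median of 0.16 for HF against LF and 0 called. The 5 fibroblast genes summed to between 9.18 and 33.01 CPM in LF and between 4.27 and 15.8 CPM in HF samples of batch 2, with all 5 lower and 0 called. For HF-LF against HF, all 6 smooth muscle genes were higher, with a median of 1.90 in batch 1 and 1.06 in batch 2 and 0 called in either. Of 4 adipocyte genes, Adipoq, Plin1 and Fabp4 averaged 0.0255, 0.0196 and 0.0596 CPM, while Cidec averaged 8.43 CPM and lay between 3.54 and 17.1 CPM. The part of these cells in the differences above was not tested.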

How the data were processed

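RNA-seq libraries (TruSeq stranded total RNA with Ribo-Zero) of 23 samples were analysed from the deposited table of counts, whole reads per gene locus, which the authors made without normalization. Per the labels and the submitters' processing notes, reads were trimmed with cutadapt 1.2.1, mapped to mm10 with STAR 2.5 and counted with featureCounts 1.5.0-p1. Whether strand was used, and how reads matching several loci were treated, is not given in the sources used here. Of the 24917 loci, 5109 had no count. Totals ran from 29189922 to 46498521 (batch 1) and from 31607019 to 65320947 (batch 2).

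Groups and batches were taken from the labels. Counts were fitted with edgeR 4.0.16 (R 4.3.3; TMM scaling, filterByExpr, quasi-likelihood F test, 3 diets per batch in one fit; batch as a covariate over both), with Benjamini-Hochberg adjustment over all genes tested: 14428, 14377 and 14725 in batch 1, batch 2 and both. A gene was called at an adjusted p under 0.05 and a fold change over 1.2. The SE is the log2 fold change over the square root of F. CPM used, within each batch, the library totals over genes passing the filter, times the TMM factors. The floor of 3 counts used the table's totals. Mean differences per sample used log2(CPM + 0.5). Transcript lengths were those of the annotated mm10 transcript ending nearest each locus. Alternatives were DESeq2 1.42.0, other scalings and filters, fits without single samples, a replicate block, limma 3.58.1 with same-numbered samples as 1 mouse, no batch covariate and, added after seeing the data, an offset for transcript length. The statistics were tested on simulated data.

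The 47 genes and the lists beside them were chosen with earlier results of these data known. Genes were named by rule: all of complex II, in complexes III to V the 4 with the smallest p for HF against LF over both batches and the 2 highest levels per kb, the 3 smallest p within each comparison of a batch, the tissue forms and the c subunit genes. Uqcr10, Uqcrc1, Atp5c1, Atp5l, Atp5o, Atp5h, Atp5j2, Atp5sl, Cox7c and other genes outside it were named after their values were seen.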

Additional observations from a re-analysis of the deposited data

Results flagged for a closer look

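Among 136 groups of 4 or 5 samples of these genes, 3 had a sample far from the others by Dixon's criterion at the 95% level, which chance gives in about 1 of 20 groups. In the LF samples of batch 2, replicate 4 had 332 CPM of Atp5d, where the other 3 samples had 296 to 301 CPM. The same sample had 63.3 CPM of Atp5g2, where the others had 53.1 to 54.0 CPM. LF batch 2 replicate 1 had 0.489 CPM of Cox8b, a gene with few counts, where the others had 0.808 to 0.870 CPM. No gene passed the test of a difference between the batches in the HF to LF change.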

How the results depend on the processing

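Of 61 alternatives other than leaving out a sample, 50 gave a count of called genes within 1.5 times that reported. Most of these 50 belong to results whose reported count was 0 and stayed 0. They say little about how stable the counts above 0 are. For HF against LF in batch 1 the count of 0 became 1 with DESeq2. In batch 2 the count of 1 became 2 with no filter on low counts, 5 with only the 2 diets compared, 17 with DESeq2, 17 with a replicate block and 0 with a transcript length offset. Of all genes, the 1069 called there in either direction became 1053, 1108, 1841, 2080 and 869, in the same order. Over both batches the count of 25 became 11 with no batch covariate and 2 with the length offset. Of all genes, the 2623 called there in either direction became 1686 and 2014. For HF-LF against HF, the counts of 22 in batch 2 and 13 over both batches became 0 with the length offset, and the latter became 2 with no batch covariate. Of all genes, the 2084 and 1500 called became 1375 and 1044 with the length offset, and the 1500 became 520 with no batch covariate. The length offset was chosen after seeing the data, and the cause of these changes was not tested.

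Whether the replicate numbers pair the samples was not tested. Within a batch, deviations from the group mean of same-numbered samples of different diets were correlated over genes. The correlations were -0.476 to 0.476 (median 0.128) in batch 1 and -0.139 to 0.478 (median 0.0775) in batch 2. Of 10 pairs each, 5 and 4 were over 0.1. Samples with different numbers had medians of -0.0287 and -0.0132, with 8 of 30 and 11 of 37 pairs over 0.1. Across the batches, same-numbered samples of the same diet had a median of -0.0520, with 4 of 11 pairs over 0.1. Those with different numbers had a median of -0.00362, with 11 of 34 pairs over 0.1. The replicate block changed no other count by over 1.5 times.

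Without single samples, the counts ranged from 0 to 10 (HF against LF) in batch 1, 0 to 23 in batch 2 and 12 to 28 over both, and for HF-LF against HF from 0 to 0, 0 to 29 and 1 to 28. For HF-LF against LF and for the interaction they were 0 throughout. The share of all genes called in these fits is not given here, so how far the ranges are particular to these genes cannot be read from them.

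Of 933 alternative values of named genes, 785 kept direction and side of the threshold and 27 changed sign. With the length offset, the log2 fold changes of HF against LF in batch 1 became -0.079 for Atp5d, -0.16 for Atp5g2, -0.054 for Cox4i1, -0.062 for Cox6a1, -0.027 for Cox8a, -0.15 for Cox8b and -0.015 for Uqcrh. In batch 2 they became -0.13 for Atp5d, -0.16 for Atp5g2, -0.042 for Cox4i1, -0.14 for Cox6a1, -0.11 for Cox8a and -0.014 for Sdhb. Over both batches they became -0.10 for Atp5d, -0.16 for Atp5g2, -0.044 for Cox4i1, -0.095 for Cox6a1 and -0.062 for Cox8a. For HF-LF against HF in batch 2 they became 0.11 for Atp5g2, 0.043 for Cox4i1, 0.051 for Cox6a1, 0.012 for Cox6c, 0.018 for Cox8a and 0.0055 for Uqcrh. Without single samples, those of HF against LF in batch 1 ran from -0.034 to 0.15 for Atp5g2, from -0.0076 to 0.31 for Cox8b and from -0.035 to 0.061 for Sdha, the lowest each time without LF batch 1 replicate 3.

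Levels of genes that share sequence with processed copies are uncertain, and mitochondrially encoded subunits were not analysed here. Cox8b and Cox6b2 were tested on few counts.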
